A study of Mus musculus with 9 samples.

Results

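The 9 genes described here encode the mitochondrial machinery that builds iron-sulphur clusters and hands them to proteins: Nfs1, Iscu, Hscb, Glrx5, Isca1, Isca2, Iba57, Nfu1 and Bola3. They were taken from the deposited table of 55536 genes by matching Ensembl identifiers to these symbols, and all 9 were among the 15720 genes that passed the filter on low counts. The samples were primary mouse myoblasts, the dividing precursor cells of skeletal muscle, from mice with floxed Uqcrfs1, in 3 groups of 3 libraries. The floxed vehicle group (uqcrfs1 +/+) received adenovirus for green fluorescent protein and DMSO. The knockout vehicle group (uqcrfs1 -/-), from the protocol's adenoviral Cre arm, received DMSO, and the knockout oxybutynin group (uqcrfs1 -/-) received 7.5 µM oxybutynin, an antimuscarinic drug that the study followed for its effect on the proliferation of myoblasts with defective complex III. Cells of all groups had been infected with an adenovirus, seeded 72 h later, and given drug or vehicle 24 h after seeding for 5 days. Cre adenovirus and loss of Uqcrfs1 cannot be told apart in these groups, and floxed cells with oxybutynin are not among the samples analysed here. The labels do not say whether the 3 libraries of a group came from separate cultures or animals, and p-values here measure only the library-to-library spread, possibly of technical origin.

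Iron-sulphur clusters are small inorganic cofactors that carry electrons in respiratory complexes I, II and III and sit at the active centre of several enzymes. In mitochondria, the cysteine desulphurase NFS1 supplies sulphur and the scaffold ISCU holds the growing cluster. The chaperone HSPA9 with its co-chaperone HSCB then moves the cluster to the glutaredoxin GLRX5, and late-acting factors (ISCA1, ISCA2, IBA57, NFU1 and BOLA3) make or deliver clusters for particular proteins, among them lipoic acid synthase. Uqcrfs1, the gene deleted here, encodes the Rieske protein of complex III, which itself carries a cluster made by this machinery.

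Library totals ran from 19604971 to 26226949 counts. Uqcrfs1 had 1539, 1781 and 1881 counts in the floxed libraries, 51, 51 and 70 in the knockout vehicle libraries and 71, 69 and 46 in the knockout oxybutynin libraries, so every library matched its genotype label. The 6 myoblast markers summed to between 2660 and 3720 CPM (counts scaled to library size by TMM factors) in every library, and their calls in knockout vehicle against floxed vehicle were split, with 2 higher, 2 lower and 2 not called. Means in the 3 groups, in the order above, were 1120, 1300 and 1530 CPM for Myod1, 190, 103 and 112 CPM for Cdh15 and 58.5, 44.8 and 36 CPM for Myf5, and Cdh15 and Myf5 were those called lower. Those called higher were Pax7, at 321, 385 and 420 CPM, and Des, at 694, 936 and 1050 CPM. The 6 fibroblast markers summed to 22.8 to 26.2 CPM in floxed libraries, 51.2 to 67.5 CPM in knockout vehicle and 54.6 to 74.6 CPM in knockout oxybutynin libraries, mostly Col1a1, with Lum at 0 in every library. The 3 smooth muscle markers, mostly Acta2, summed to 453 to 499, 817 to 1100 and 1020 to 1160 CPM, with Myh11 at 0.838 CPM or less. The 3 leukocyte markers, mostly Cd68, summed to 5.11 to 5.88, 10.8 to 12.3 and 11.9 to 13.1 CPM, with Ptprc at 0.344 CPM or less. Endothelial, Schwann cell and adipocyte markers summed to at most 2.93 CPM in any library. Across 12976 protein-coding genes, the log2 fold change of a gene rose with the GC content of its exons (Spearman's rho 0.558 for knockout vehicle against floxed vehicle, 0.711 for knockout oxybutynin against knockout vehicle and 0.655 for knockout oxybutynin against floxed vehicle, across genes, which are not independent replicates). For that reason fold changes of the assembly genes over floxed vehicle, and of other named genes where a called value moved by over 1.5 times or the call changed, are also given from a fit in which the trend with GC content and exon length was removed. In that fit 1 myoblast marker was higher and 3 were lower in knockout vehicle against floxed vehicle. Myf5 went from a log2 fold change of -0.39 to 0.45 and was called higher (adjusted p = 0.000216). Cdh15 went from -0.88 to -1.40, and Myod1 from 0.22, not called, to -0.27, called lower (adjusted p = 0.000291). Pax7 went from 0.26 to -0.14 and Des from 0.43 to 0, and neither was then called. The share of counts from mitochondrially encoded genes was 3.07 to 3.14% in floxed libraries and 1.58 to 2.71% in the 6 knockout libraries. The part of these marker and mitochondrial shifts in the results below was not tested, and in bulk RNA fewer cells of a type and less RNA per cell cannot be told apart.

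The 9 genes lie on 6 chromosomes and all are protein-coding (GENCODE M21, GRCm38). Nfs1 lies at chr2:156123639-156144186 on the minus strand, and Iscu at chr5:113772748-113778288 on the plus strand. Hscb, the nearest of the set to Iscu, lies at chr5:110829070-110839777 on the minus strand. Glrx5 lies at chr12:105032688-105042906 and Isca2 at chr12:84773251-84775088, both on the plus strand. Isca1 lies at chr13:59755409-59769810 and Iba57 at chr11:59155369-59163739, both on the minus strand. Nfu1 lies at chr6:87009236-87028461 and Bola3 at chr6:83349147-83360136, both on the plus strand. Exonic GC content spanned 45.3% in Hscb, at percentile 23 of the tested protein-coding genes, to 56.2% in Iscu, at percentile 81.8. Nfs1 shares 148 exonic bases with Romo1 on the other strand, and Isca1 shares 314 with Etohd2 on the other strand. Because no source used here states whether counting respected strand, reads in those bases cannot be assigned to one gene. The partners had 56 to 148 counts (Romo1) and 6 to 29 counts (Etohd2) per library. On the same strand, Nfs1 shares 256 exonic bases with Gm28036 and Isca1 shares 115 with Gm49354, both with 0 counts in every library. Strand does not separate these pairs, and how reads in their shared bases were counted is not given.

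Of the 9 genes, 7 had an entry in the RefSeq promoter table (GRCm38.p6), with 9 windows in all because Bola3 has 3. Iscu and Hscb have no entry. A search of both strands for the binding motif of NRF1, a factor that controls many nuclear genes for mitochondrial proteins, written as GCGC, any base and TGCGC, matched in 2 of these 9 windows of 300 bases (250 before and 50 after the start). Across all 32851 windows the share was 4.6%. The windows with a match were those of Isca1, at -18 to -9 from the start, and Nfu1, at 41 to 50 after it, on the opposite strand. The composite element bound by ATF4, the factor of the integrated stress response, written TGATGNAA, matched in 0 of the 9 and in 3.97% of all windows. A match describes the letters only. The sequences of the paralogues Isca1 (chr13:59769790-59770039, minus strand) and Isca2 (chr12:84773020-84773269, plus strand), whose proteins act together, and the matched stretch of Nfu1 (chr6:87009856-87009885, plus strand) are shown 5′ to 3′ with the NRF1 motif in capitals. They let the pair be compared, since Isca1 carries the motif and Isca2 does not.
Isca1: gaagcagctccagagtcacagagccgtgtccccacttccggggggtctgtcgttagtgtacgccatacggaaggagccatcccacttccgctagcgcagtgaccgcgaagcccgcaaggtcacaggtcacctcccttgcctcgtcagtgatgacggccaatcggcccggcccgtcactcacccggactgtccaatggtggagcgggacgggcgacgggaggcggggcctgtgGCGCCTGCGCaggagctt
Isca2: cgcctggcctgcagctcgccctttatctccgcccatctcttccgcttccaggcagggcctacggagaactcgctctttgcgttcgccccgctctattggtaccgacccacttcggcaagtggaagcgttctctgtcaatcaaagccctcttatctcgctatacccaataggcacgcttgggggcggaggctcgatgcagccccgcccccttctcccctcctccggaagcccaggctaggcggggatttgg
Nfu1: gacaagaaggaggcgggtccGCGCAAGCGC

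Loss of Uqcrfs1 was accompanied by higher RNA levels of 7 of the 9 assembly genes. In knockout vehicle against floxed vehicle libraries, Hscb, Nfu1, Iscu, Bola3, Isca2, Nfs1 and Isca1 rose, between 1.21-fold and 2.19-fold, none fell, and Iba57 and Glrx5 did not pass the test (edgeR's quasi-likelihood test, Benjamini-Hochberg adjusted p under 0.05). In this comparison 63.3% of all tested genes were called in either direction, 29.9% higher and 33.4% lower, so a call by itself is common here. At an unadjusted p under 0.05, 8 of the 9 passed, against 66.7% of all tested genes. The median log2 fold change was 0.54 over the 9 genes and -0.01 over all tested genes. With the trend in GC content and exon length removed, 5 of the 9 were higher and 1, Glrx5, was lower, against 27.9% and 30.2% of all tested genes (58% in either direction), and the median of the 9 was 0.37. The plot of CPM by library shows these levels.

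**Figure D1:**
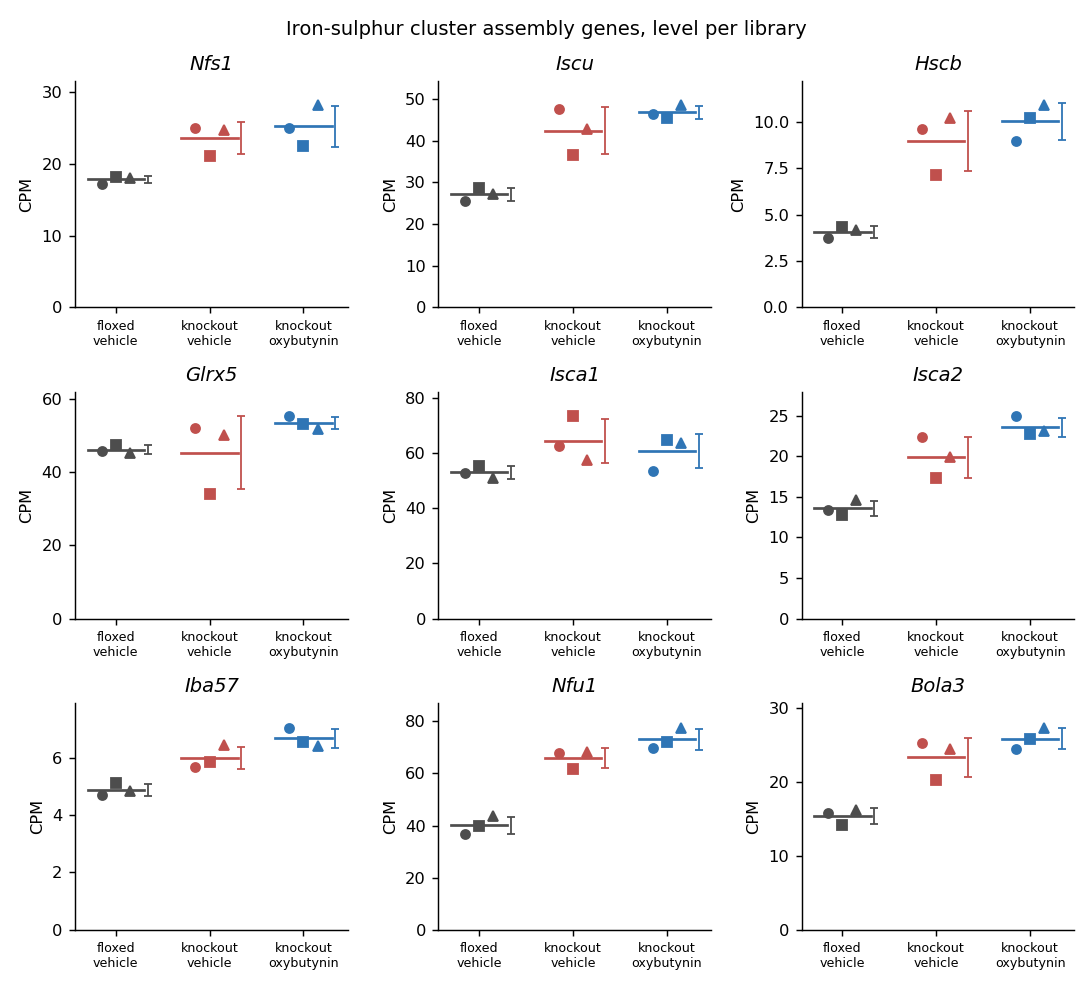
Level of each of the 9 assembly genes in CPM (y axis, from 0) in the floxed vehicle, knockout vehicle and knockout oxybutynin groups. Points are libraries (circle, square and triangle for replicates 1, 2 and 3), bars are means and error bars are SD (n = 3), and for Nfs1, Iscu, Hscb, Isca2, Iba57, Nfu1 and Bola3 every knockout point lies above every floxed point.

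The sulphur donor and the scaffold both rose. Nfs1, the cysteine desulphurase, measured 17.2, 18.2 and 18 CPM in the floxed libraries, 24.9, 21 and 24.7 CPM in knockout vehicle and 24.9, 22.5 and 28.1 CPM in knockout oxybutynin libraries. All 6 knockout libraries lay above all 3 floxed ones. Knockout vehicle over floxed vehicle gave a log2 fold change of 0.40 ± 0.11 (SE), or 1.32-fold (adjusted p = 0.0034). It was 0.21 with the GC and length trend removed, where Nfs1 was no longer called (adjusted p = 0.0659).

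Iscu, the scaffold on which the cluster is put together, measured 25.5, 28.6 and 27.2 CPM in floxed libraries, 47.7, 36.5 and 42.9 CPM in knockout vehicle and 46.5, 45.4 and 48.5 CPM in knockout oxybutynin libraries. Floxed and knockout libraries were again separate, and the oxybutynin libraries lay within the upper range of the knockout vehicle libraries or just above it. Relative to floxed vehicle, knockout vehicle stood at 0.64 ± 0.10 on the log2 scale (1.56-fold, adjusted p = 2.97e-05). Iscu has the highest GC content of the 9, and with the GC and length trend removed its value was 0.19 (adjusted p = 0.0565), so this call was lost with that correction.

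Hscb changed most of the 9. This gene for the J-domain co-chaperone, which docks the loaded scaffold onto the chaperone HSPA9, measured 3.73, 4.34 and 4.18 CPM in floxed libraries (73 to 101 counts), 9.6, 7.15 and 10.2 CPM in knockout vehicle (171 to 251 counts) and 8.98, 10.2 and 10.9 CPM in knockout oxybutynin libraries (220 to 259 counts). The lowest knockout library was well above the highest floxed one. Its log2 fold change was 1.13 ± 0.16, or 2.19-fold (adjusted p = 6.52e-06). Hscb has the lowest GC content of the 9, and its value was larger, 1.54, with the trend removed (adjusted p = 1.62e-07).

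Glrx5, the monothiol glutaredoxin that receives the cluster from the chaperones, did not pass the test. It measured 45.8, 47.5 and 45.2 CPM in floxed libraries, 52, 34 and 50.2 CPM in knockout vehicle and 55.3, 53.3 and 51.9 CPM in knockout oxybutynin libraries. Knockout vehicle replicate 2 lay below every floxed library and the other two lay above, so the groups overlapped. The log2 fold change was -0.02 ± 0.12 (adjusted p = 0.875), and 0.15 without that library (adjusted p = 0.0839). With the GC and length trend removed Glrx5 was called lower, at -0.45 (adjusted p = 0.000318), in the opposite direction to the other called genes of the set.

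The A-type carriers differed in how firmly they moved. ISCA1 and ISCA2, with IBA57, make the 4-iron clusters that lipoic acid synthase and other mitochondrial enzymes need. Isca1 measured 52.8, 55.4 and 50.8 CPM in floxed libraries, 62.5, 73.2 and 57.4 CPM in knockout vehicle and 53.5, 64.5 and 63.7 CPM in knockout oxybutynin libraries. The knockout vehicle libraries were all above the floxed ones, whereas the oxybutynin libraries overlapped them. For knockout vehicle over floxed vehicle the log2 fold change was 0.28 ± 0.10 (1.21-fold, adjusted p = 0.0224). This call was lost without floxed replicate 1 (adjusted p = 0.063), floxed replicate 3 (adjusted p = 0.0884) or knockout vehicle replicate 2 (0.18, adjusted p = 0.066). With the GC and length trend removed it was 0.48 (adjusted p = 1.75e-05).

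Isca2 measured 13.4, 12.8 and 14.6 CPM in floxed libraries, 22.4, 17.3 and 19.9 CPM in knockout vehicle and 24.9, 22.7 and 23.1 CPM in knockout oxybutynin libraries. The 3 groups formed 3 separate ranges. The log2 fold change over floxed vehicle was 0.54 ± 0.11 in knockout vehicle (1.46-fold, adjusted p = 0.000413), and 0.40 with the trend removed (adjusted p = 0.00171). Iba57, the folate-binding partner of both carriers, measured 4.7, 5.11 and 4.85 CPM in floxed, 5.68, 5.86 and 6.44 CPM in knockout vehicle and 7.06, 6.57 and 6.42 CPM in knockout oxybutynin libraries. Floxed libraries lay below all knockout ones, but the log2 fold change of 0.29 ± 0.13 for knockout vehicle missed the threshold (adjusted p = 0.0657). It was called without knockout vehicle replicate 1 (0.37, adjusted p = 0.0433), and was -0.12 with the trend removed (adjusted p = 0.41).

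The delivery factors for lipoic acid synthase and the respiratory complexes both rose. Nfu1, a late carrier of 4-iron clusters, measured 36.9, 39.8 and 43.6 CPM in floxed libraries, 67.8, 61.7 and 68.4 CPM in knockout vehicle and 69.6, 72 and 77.6 CPM in knockout oxybutynin libraries. Each group had its own range. In knockout vehicle its log2 fold change was 0.72 ± 0.09, or 1.64-fold (adjusted p = 1.91e-06), and moved little, to 0.64, with the trend removed (adjusted p = 1.46e-06).

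Bola3, which acts beside NFU1, measured 15.7, 14.1 and 16.2 CPM in floxed libraries, 25.2, 20.2 and 24.4 CPM in knockout vehicle and 24.4, 25.7 and 27.3 CPM in knockout oxybutynin libraries. Knockout and floxed libraries did not overlap. The log2 fold change was 0.60 ± 0.11 (1.52-fold, adjusted p = 0.000111), and 0.37 with the trend removed (adjusted p = 0.00186). In all, the 3 knockout vehicle libraries lay above the 3 floxed ones for 8 of the 9 genes and below them for none, against 31.2% and 35.5% of all tested genes. Knockout vehicle replicate 2 was the lowest of its group for 7 of the 9 genes and the highest for Isca1. Its share of mitochondrially encoded counts was 2.71%, against 2.04% and 1.95% in the other two. Without it 6 of the 9 were called higher.

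**Figure D2:**
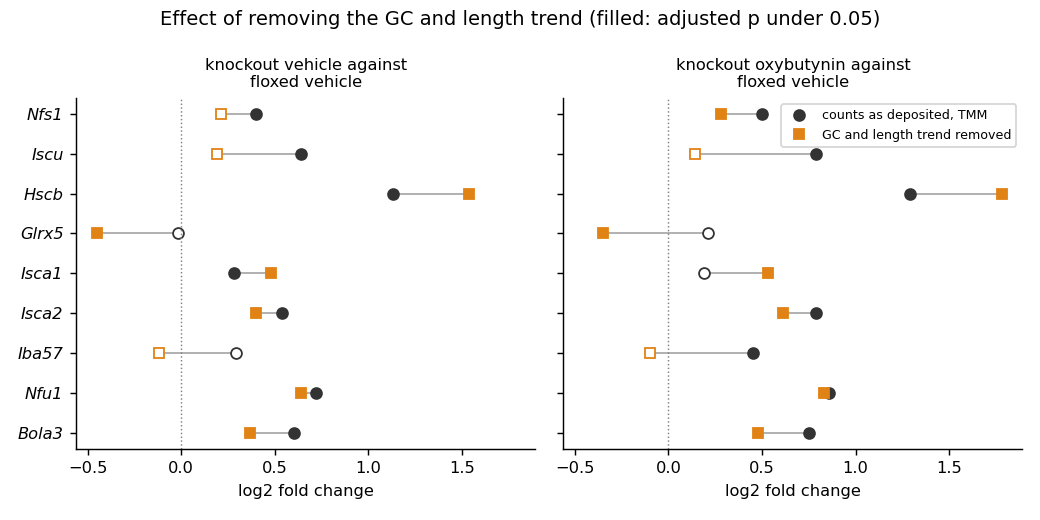
Log2 fold change (x axis) of each gene over floxed vehicle, in knockout vehicle (left) and knockout oxybutynin (right), from counts as deposited (circles) and with the trend in GC content and exon length removed (squares), filled where adjusted p was under 0.05. Nfs1, Iscu, Isca2, Bola3 and Iba57 moved toward or past 0, Glrx5 moved below 0, Hscb and Isca1 moved further up, and Nfu1 changed least.

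Oxybutynin was next compared with vehicle within knockout cells, the comparison that addresses what the drug changed. None of the 9 genes was called, and 2 of the 15720 tested genes were (0.0127%, or 0.00636% in each direction): AW551984, at -1.0 ± 0.14 on the log2 scale (adjusted p = 0.0263), and Gm24616, at 1.29 ± 0.19 (adjusted p = 0.0291), which are named after their values were seen. By DESeq2, 1134 genes were called and 0 of the 9. At an unadjusted p under 0.05, 1 of the 9 passed, against 26% of all tested genes. That gene was Isca2, whose log2 fold change was 0.25, with a 95% interval of 0.02 to 0.48 and an unadjusted p of 0.0325 (adjusted p = 0.16). Isca2 and Nfu1 had oxybutynin libraries all above the vehicle libraries (10.5% of all tested genes did), none of the 9 had them all below (11.6% did), and Nfu1 was at 0.15, with an interval of -0.04 to 0.33 (adjusted p = 0.288).

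The other estimates were small. Hscb was at 0.16 (-0.14 to 0.46, adjusted p = 0.492), Iscu at 0.14 (-0.06 to 0.35, adjusted p = 0.363) and Nfs1 at 0.10 (-0.12 to 0.32, adjusted p = 0.574). Glrx5 was at 0.24 (-0.02 to 0.49, adjusted p = 0.22), with its low knockout vehicle replicate 2 in the comparison. Bola3 was at 0.15 (-0.07 to 0.37, adjusted p = 0.37), Iba57 at 0.16 (-0.12 to 0.43, adjusted p = 0.454) and Isca1 at -0.09 (-0.30 to 0.12, adjusted p = 0.6). The intervals therefore admit changes between -0.30 and 0.49 on the log2 scale, and a p above the threshold does not show that drug and vehicle acted alike. With the GC and length trend removed the 9 values ran from -0.05 (Iscu) to 0.23 (Hscb), with Isca1 at 0.05. The count of called genes over the whole table moved with the libraries used. It was 4188 without knockout vehicle replicate 3, 63 without replicate 2 and 0 without replicate 1 of that group, and 0 without any 1 of the oxybutynin libraries, but none of the 9 genes was called in any of the fits run.

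**Figure D3:**
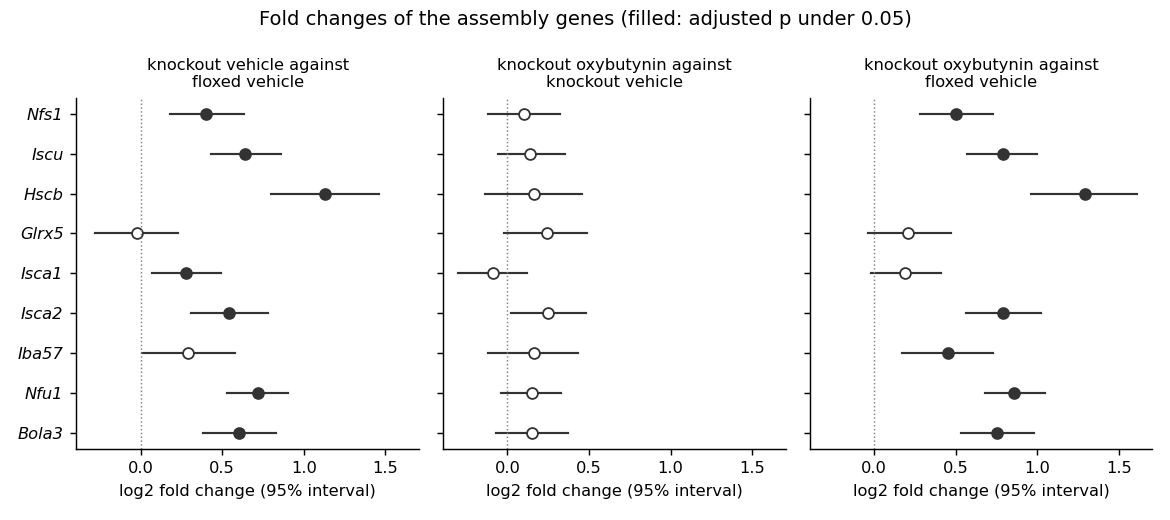
Log2 fold change (x axis) of the 9 genes in the 3 comparisons, with 95% intervals from edgeR's fit, filled where adjusted p was under 0.05. The left and right panels each hold 7 filled points above 0, and the middle panel, oxybutynin against vehicle in knockout cells, holds none.

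Knockout oxybutynin libraries were also compared with floxed vehicle libraries, which asks whether the genes returned to the floxed level with the drug. This comparison shares its floxed libraries with the first and its oxybutynin libraries with the second, so it is not independent of them. Here 7 of the 9 genes were higher and none lower, with a median log2 fold change of 0.75, while 71.9% of all tested genes were called, 35.1% higher and 36.9% lower, and 73.9% passed at an unadjusted p under 0.05. The genes were Hscb at 1.29 ± 0.15 (2.44-fold, adjusted p = 8.87e-07), Nfu1 at 0.86 ± 0.09 (1.82-fold, adjusted p = 1.34e-07), Iscu at 0.79 ± 0.10 (1.73-fold, adjusted p = 2.09e-06) and Isca2 at 0.79 ± 0.11 (1.73-fold, adjusted p = 5.57e-06), followed by 3 smaller changes. Bola3 was at 0.75 ± 0.11 (adjusted p = 7.18e-06), Nfs1 at 0.50 ± 0.11 (adjusted p = 0.000453) and Iba57 at 0.45 ± 0.13 (adjusted p = 0.0059). Thus Iba57 passed here and Isca1 (0.19 ± 0.10, adjusted p = 0.0967) did not, the reverse of the first comparison. The difference between the comparisons is the oxybutynin contrast above, in which neither was called.

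Glrx5 was at 0.21 ± 0.12 (adjusted p = 0.122), although its oxybutynin libraries all lay above the floxed ones, as they did for 8 of the 9 genes and 38.9% of all tested genes. None of the 9 had them all below, against 40.1%. Without knockout vehicle replicate 2, which is not in this contrast but enters the shared spread, Glrx5 (0.22, adjusted p = 0.00669) and Isca1 (0.20, adjusted p = 0.0255) were called and 9 of 9 were higher. Isca1 was also called without knockout oxybutynin replicate 1 (0.28, adjusted p = 0.0305). In a fit of only the 2 groups compared, Isca1 (0.23, adjusted p = 0.00542) and Glrx5 (0.25, adjusted p = 0.000617) were called. With no filter on low counts Isca1 (0.24, adjusted p = 0.0378) and Glrx5 (0.26, adjusted p = 0.0252) were called too. With the GC and length trend removed, 6 were higher and 1 lower (29.5% and 31.1% of all tested genes, 60.6% in either direction), and the median was 0.48. Hscb was then at 1.78, Nfu1 at 0.83, Isca2 at 0.61, Isca1 at 0.53, Bola3 at 0.48 and Nfs1 at 0.28. Iscu (0.14, adjusted p = 0.142) and Iba57 (-0.10, adjusted p = 0.475) were no longer called, and Glrx5 was lower at -0.35 (adjusted p = 0.00253).

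Levels were compared between the 9 genes as CPM per kilobase of exon, using the union of all annotated exons. In floxed libraries Glrx5 (12.5 ± 0.316, SD, n = 3) and Iscu (12.5 ± 0.703) were highest and overlapped. Nfu1 (8.32 ± 0.69) and Isca2 (7.41 ± 0.482) came next and overlapped with each other. Isca1 (4.96 ± 0.215), Nfs1 (4.92 ± 0.138), Bola3 (4.77 ± 0.341) and Hscb (4.51 ± 0.349) formed a group whose neighbours did not differ beyond their spread, and Iba57 was lowest at 1 ± 0.0426. The order changed in knockout vehicle libraries, where Iscu led at 19.5 ± 2.59, ahead of Nfu1 (13.7 ± 0.772), Glrx5 (12.3 ± 2.7), Isca2 (10.8 ± 1.38) and Hscb (9.91 ± 1.77). Nfu1 overlapped with Glrx5, Glrx5 with Isca2 and Isca2 with Hscb. By its mean, Hscb moved from place 8, where its range overlapped that of Bola3 above it, to place 5. It also held place 5 in oxybutynin libraries, and Iba57 was lowest in all 3 groups. The annotated exons of Isca1 add up to 10680 bases, which lowers its value per kilobase beside that of Isca2, with 1838.

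The patterns of the genes over the 9 libraries were set side by side by the root mean square difference of log2 CPM, each gene centred on its own mean, which is a description with no test. Within the set the nearest pair was Isca2 and Bola3, 0.085 apart, followed by Iscu and Nfu1 at 0.09. Glrx5 (0.212 to its nearest, Iba57), Isca1 (0.196, also to Iba57) and Hscb (0.215 to Nfu1) stood farthest from the others. Among 8958 other genes of at least 10 CPM, the nearest to Hscb were Vegfb (0.076) and Inpp5a (0.088), to Iscu Tmem50a (0.038) and Lamp1 (0.053), and to Nfu1 Arfgap3 (0.042) and Fam219b (0.051). Isca2 was nearest to Pald1 (0.047) and Ttll1 (0.056), and Bola3 to Amigo1 (0.051) and H1f0 (0.062). Isca1 was nearest to Ndel1 (0.049) and Rab12 (0.054), and Iba57 to Letmd1 (0.026) and Hdac6 (0.033).

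Transcripts of the partners of the assembly machinery moved in both directions. Of 15 listed partners (among them the electron supply of the scaffold complex, the chaperone system, iron importers and targeting factors), 14 were tested, and in knockout vehicle against floxed vehicle 9 rose, 2 fell and 3 did not pass, with a median log2 fold change of 0.41 (29.9% of all tested genes were higher and 33.4% lower). Fdx2, the ferredoxin of the scaffold complex, listed under its older symbol Fdx1l, was not tested, at 0 to 0.4 CPM. The count that fell was 1 without floxed replicate 1 or 2, knockout vehicle replicate 1 or 2 or knockout oxybutynin replicate 1.

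Named partners had roles in handling the Rieske protein, in the chaperone step and in the supply of iron and electrons. Bcs1l, the translocase that inserts the Rieske protein into complex III, was at 0.76 ± 0.10 (adjusted p = 2.46e-06) and 0.52 with the trend removed. Hspa9, the chaperone that HSCB serves, went from 473 ± 6.59 CPM in floxed to 734 ± 76.2 with vehicle and 600 ± 16.3 with oxybutynin in knockout cells. That is a log2 fold change of 0.63 ± 0.08 for knockout vehicle over floxed (adjusted p = 3.55e-06), which was 1.18 with the trend removed, and one of -0.29 ± 0.08 for oxybutynin over vehicle that did not pass the test (adjusted p = 0.0767). Slc25a37, mitoferrin-1, an iron importer of the inner membrane, was at 0.65 ± 0.09 (adjusted p = 9.34e-06). Fdxr, the reductase that feeds electrons to the ferredoxins, rose from 3.9 ± 0.579 to 7.59 ± 1.52 CPM (0.97 ± 0.16, adjusted p = 6.7e-05), and was at 0.45 with the trend removed. Lyrm7, which holds the Rieske protein before its insertion, had 0.29 (adjusted p = 0.121), and was called without floxed replicate 2 (0.47, adjusted p = 0.0277) and with the trend removed (0.76, adjusted p = 0.000252). Ndufab1, the acyl carrier protein bound to the desulphurase complex, had -0.16 (adjusted p = 0.156), but was called higher with the trend removed (0.31, adjusted p = 0.0125). In knockout oxybutynin against floxed vehicle libraries, 9 of the 14 rose, 1 fell and 4 did not pass, with a median of 0.38. Of all tested genes 35.1% were higher and 36.9% lower in that comparison.

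**Figure D4:**
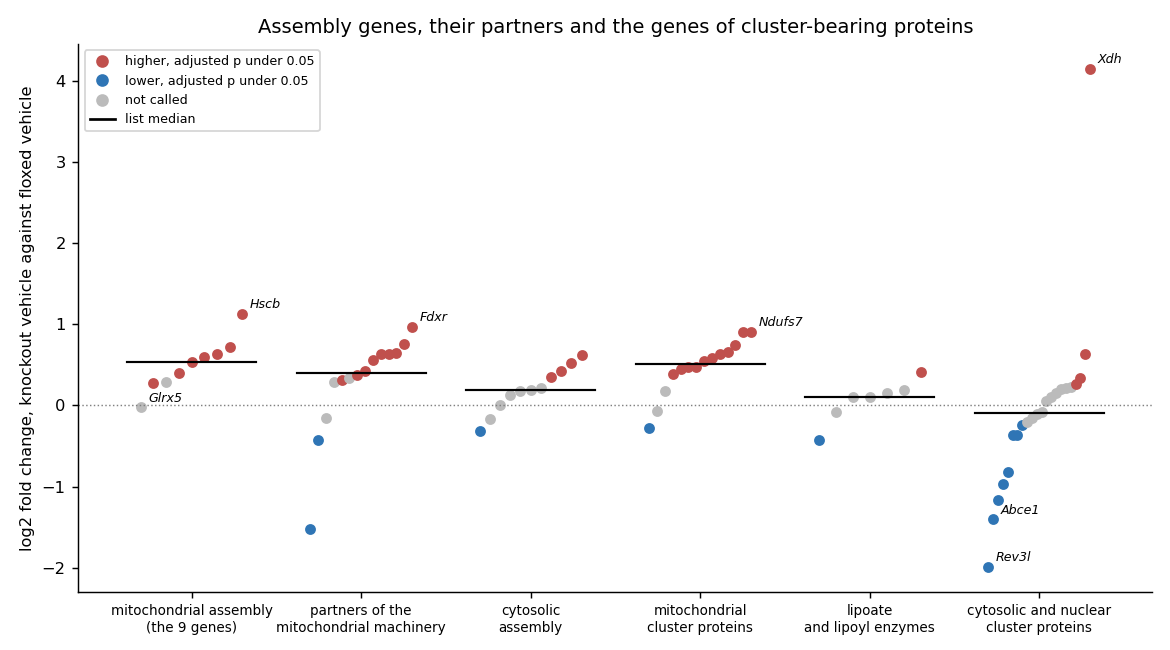
Log2 fold change of knockout vehicle over floxed vehicle (y axis) for every tested gene of the assembly set and of 5 related lists (x axis), colored by call at an adjusted p under 0.05, with each list's median as a bar. The assembly genes have a median of 0.54 and the genes for mitochondrial cluster proteins 0.52, against -0.09 for those of cytosolic and nuclear cluster proteins.

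Genes for mitochondrial proteins that receive the clusters were mostly higher as well. In knockout vehicle against floxed vehicle, 11 of the 14 tested rose, 1 fell and 2 did not pass, with a median of 0.52. Over all tested genes 29.9% were higher and 33.4% lower. With the trend removed, 10 were higher and 0 lower (27.9% and 30.2% of all tested genes), with a median of 0.32. Ndufs7, a complex I subunit with a 4-iron cluster, was at 0.91 ± 0.08 (adjusted p = 3.91e-08), and Fech, ferrochelatase, the last enzyme of heme synthesis, at 0.59 ± 0.07 (adjusted p = 1.52e-06). With the trend removed these were at 0.43 and 0.89. Sdhb, the cluster subunit of complex II, was at 0.63 ± 0.09 (adjusted p = 1.29e-05), and at 0.26 with the trend removed. Lias, lipoic acid synthase, a client of NFU1 and BOLA3, was at 0.48 ± 0.10 (adjusted p = 0.000439) and is named after its values were seen. The one that fell, Ndufs1 of complex I (-0.28 ± 0.10, adjusted p = 0.0221), turned to 0.30 with the GC and length trend removed (adjusted p = 0.00173). Its call was also lost without floxed replicate 1 or 2 (adjusted p = 0.0623 and 0.0594) or knockout vehicle replicate 3 (adjusted p = 0.0658). Ndufv2 (0.18) and Etfdh (-0.07) did not pass, though Ndufv2 was called higher with the trend removed (0.68, adjusted p = 1.99e-05) and without knockout vehicle replicate 2 (0.28, adjusted p = 0.0063), and Etfdh lower without knockout vehicle replicate 1 (-0.28, adjusted p = 0.0252).

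Lipoate attachment and the lipoylated enzymes, which depend on lipoic acid synthase, had few calls. Of 7 genes, 1 rose, 1 fell and 5 did not pass, with a median of 0.10. Of all tested genes 63.3% were called, 29.9% higher and 33.4% lower. Lipt1, the lipoyl transferase, was at 0.41 ± 0.16 (adjusted p = 0.0321), a call lost without floxed replicate 2 (adjusted p = 0.177), knockout vehicle replicate 1 (adjusted p = 0.0687) or knockout vehicle replicate 3 (adjusted p = 0.0649). Dbt, the branched-chain keto acid dehydrogenase core, was at -0.43 ± 0.12 (adjusted p = 0.00633) and at 0.15 with the trend removed (adjusted p = 0.243). Dlat of pyruvate dehydrogenase had 0.10 and Dlst of 2-oxoglutarate dehydrogenase 0.15, neither called. Without knockout vehicle replicate 2 Dlst passed (0.17, adjusted p = 0.0321). With the trend removed 4 of the 7 were higher and 0 lower, beside 27.9% and 30.2% of all tested genes. Dlat (0.18, adjusted p = 0.0276) and Dlst (0.23, adjusted p = 0.00256) were among the 4.

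The cytosolic assembly machinery matures cytosolic and nuclear cluster proteins. In knockout vehicle against floxed vehicle, 4 of its 11 genes rose, 1 fell and 6 did not pass, with a median of 0.19, beside 29.9% higher and 33.4% lower over all tested genes. In knockout oxybutynin against floxed vehicle, 8 rose, 1 fell and 2 did not pass, with a median of 0.36, beside 35.1% and 36.9%. With the trend removed, 4 were higher and 2 lower in knockout vehicle, with a median of 0.10, beside 27.9% and 30.2% of all tested genes. In knockout oxybutynin 6 were then higher and 2 lower, with a median of 0.21, beside 29.5% and 31.1%. Of the 11 genes, 4 were called in the same direction in both fits of that comparison. The values that follow are for knockout vehicle. Ciao3, the iron-only hydrogenase-like adaptor listed under its older symbol Narfl, was at 0.62 ± 0.11 (adjusted p = 0.000108) and at 0.26 with the trend removed (adjusted p = 0.0115). Mms19, a targeting factor for DNA repair enzymes, was at 0.35 ± 0.08 (adjusted p = 0.000777). Nubp2, of the cytosolic scaffold, was at 0.42 ± 0.11 (adjusted p = 0.00229) and at 0.00 with the trend removed (adjusted p = 0.986). Ciao2b, part of the targeting complex, was at 0.52 ± 0.16 (adjusted p = 0.00862). It was not called with the trend removed (0.12, adjusted p = 0.379) or without knockout vehicle replicate 3 (0.33, adjusted p = 0.0837). The fall of Ndor1, the cytosolic electron donor (-0.32 ± 0.13, adjusted p = 0.0451), was lost in 8 of the 9 fits that each left out 1 library, with adjusted p of 0.0543 to 0.137 in those fits. With the trend removed it was -0.71 (adjusted p = 3.39e-05).

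Among genes for cytosolic and nuclear cluster proteins, 4 of 22 tested rose, 8 fell and 10 did not pass, with a median of -0.09, so the share called was below the 63.3% of all tested genes. With the trend removed 4 were higher and 10 lower (27.9% and 30.2% of all tested genes), with a median of -0.21. Xdh, xanthine dehydrogenase of purine breakdown, rose from 1.04 ± 0.064 CPM in floxed to 18.5 ± 1.22 with vehicle and 20.3 ± 1.07 with oxybutynin in knockout cells. Its log2 fold change was 4.15 ± 0.14 for knockout vehicle over floxed (17.7-fold, adjusted p = 1.29e-12). Abce1, the ribosome recycling ATPase, fell from 333 ± 6.9 to 127 ± 10.3 CPM (-1.40 ± 0.10, adjusted p = 2.34e-09), and was at -0.33 with the trend removed. Rev3l, the catalytic subunit of a translesion DNA polymerase, was at -1.99 ± 0.11 (adjusted p = 1.53e-10), and at -0.92 with the trend removed (adjusted p = 3.38e-09). Brip1, a DNA repair helicase, was at -0.97 ± 0.11 (adjusted p = 6.37e-07) but at -0.10 with the trend removed (adjusted p = 0.3). Aco1, whose protein is an iron regulatory protein when it lacks its cluster, measured 68.9 ± 1.3, 65.3 ± 4.3 and 65.5 ± 3.82 CPM in the 3 groups and was not called (-0.08 ± 0.08, adjusted p = 0.418). With the trend removed it was called lower, at -0.28 (adjusted p = 0.00125). Without knockout vehicle replicate 2 the count of genes in this list that rose was 7. In oxybutynin against vehicle knockout libraries no gene of any of the 5 lists was called, with list medians between -0.01 and 0.15.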

How the data were processed

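RNA from 9 libraries of primary mouse myoblasts was measured by sequencing. Trizol was used to purify total RNA, per the labels' protocols, and a directional NEBNext kit turned 2 µg of it into each library. The table that the authors deposited holds raw counts for each gene, whole numbers without normalization. The submitters' processing notes name STAR 2.7.0e, Trim Galore 0.6.0, FastQC, cutadapt and DESeq2 1.26.0, and the builds mm10 and GRCm38. How counting was done, and with which annotation, is not given in the sources used. All 55536 identifiers matched GENCODE M21 and 55450 had a symbol.

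Counts were tested with edgeR 4.0.16 in R 4.3.3 (filterByExpr on group, TMM scaling, quasi-likelihood fit of all 9 libraries with 1 mean per group, 6 residual degrees of freedom). P-values were Benjamini-Hochberg adjusted over 15720 genes and called under 0.05. The trend with GC content and exon length was removed by offsets from natural splines of 5 degrees of freedom, fitted per library without reference to groups. Other alternatives were DESeq2 1.42.0, limma 3.58.1 (voom), other scalings and filters, 2-group fits, and leaving out each library. Libraries of a group differed by more than sampling noise, with a chi-square per degree of freedom of 2.09 to 54.5 for each pair, so none was counted as a duplicate. The fit was tested on simulated data. The members and gene lists were chosen with earlier results of these data known. Named genes were all 9 members and Uqcrfs1. Of each list and comparison they were up to 4 called genes with the lowest adjusted p and up to 3 uncalled genes with a known role. The nearest genes by likeness were the 2 with the smallest difference. Some genes that this rule names are not reported here.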

Additional observations from a re-analysis of the deposited data

How the results depend on the processing

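No paired analysis was possible because the titles number each library on its own and groups share no number. Removing the GC and length trend gave 1 assembly gene called lower, Glrx5, in knockout vehicle and in knockout oxybutynin against floxed vehicle. In the latter it reversed Glrx5 (-0.35) and Iba57 (-0.10). Of the other named genes it reversed Ndufab1 (0.31 in knockout vehicle, 0.59 in knockout oxybutynin), Ndufs1 (0.30) and Dbt (0.15). It also reversed the myoblast markers Myf5 (0.45 in knockout vehicle, 0.29 in knockout oxybutynin), Myod1 (-0.27 in each) and Pax7 (-0.14 and -0.16). The cause was not tested. Leaving out each library in turn gave 6 to 8 assembly genes called higher in knockout vehicle against floxed, 7 to 9 in knockout oxybutynin against floxed and 0 to 0 in oxybutynin against vehicle.

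Over all genes those fits called 8950 to 10994, 10444 to 12051 and 0 to 4188. For oxybutynin against vehicle the whole-table count was 0 with the trend removed, 1134 by DESeq2, 7 with RLE scaling, 158 with library totals, 1099 with no filter and 0 at an adjusted p under 0.01. In knockout vehicle against floxed, 153 values for the 9 genes kept their side of the threshold, 3 gained a call, 6 lost one and 0 reversed. A value counted as reversed if it changed sign and was called in either fit. In knockout oxybutynin against floxed, 151 kept their side, 8 gained a call, 1 lost one and 2 reversed, those of Glrx5 and Iba57 above. In oxybutynin against vehicle, 160 kept their side and 0 gained a call, lost one or reversed. Some values called in neither fit did change sign, such as Iba57 in knockout vehicle (-0.12 with the trend removed).

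For the 5 lists and the further named genes, the same alternatives were chosen after seeing the data. Partners called lower in knockout vehicle were 1 with no filter, in the 2-group fit and at 0.01, and 1 to 2 with a library left out. They were 2 in knockout oxybutynin with the trend removed. The cytosolic machinery had 2 lower with the trend removed, 0 by DESeq2, RLE, library totals, no filter, 2 groups and 0.01, and 0 to 1 with a library left out. Mitochondrial cluster proteins had 0 lower with the trend removed, library totals, 2 groups and 0.01, and 0 to 2 with a library left out. Lipoate genes had 4 higher and 0 lower with the trend removed, 2 higher by DESeq2 and library totals, 0 at 0.01 and 0 to 2 with a library left out. Cytosolic and nuclear cluster proteins had 3 to 7 higher with a library left out. At 19604971 or more counts per library, Hscb and Iba57 rest on the fewest counts of the set.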
